A study of Danio rerio with 3 samples.

Results

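The comparison described here set wild-type zebrafish embryos whose eggs had been given extra cortisol against vehicle embryos at 12 hours post fertilisation (hpf), in the segmentation period. Ovulated oocytes were kept from 0 to 2 hpf in fish water with cortisol at 5 mg/L (13.8 µM), or in fish water to which the vehicle alone had been added, 2 ml of ethanol per 1 L. Both groups were then raised at 28.5 °C and fixed at 12 hpf, 10 hours after the bath ended, and the fish came from a local pet shop. Total RNA (200 ng) was labelled with Cy3 (green) for vehicle and Cy5 (red) for cortisol and hybridised together on Agilent 2-colour oligonucleotide arrays. The design text gives 3 biological replicates at 12 hpf, and they were deposited as 1 set of values, so no spread between batches of embryos could be computed and no test is given. The same design was used at 5 hpf with 4 replicates and at 24 hpf with a single experiment, again with 1 deposited set of values each. Genes were kept where at least 1 probe lay above the mean plus 2 SD of the negative control spots in both channels, which 12765 of 27211 genes on the array did at 12 hpf. Over the whole series, 20434 genes were kept at 1 stage or more. As the dyes were not swapped on any array, a probe's dye bias and the difference due to cortisol cannot be told apart.

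Cortisol is the main glucocorticoid of fish. It acts by binding the glucocorticoid receptor, a transcription factor held ready for its ligand by a complex of Hsp90, Hsp70 and co-chaperones, and the receptor of the early zebrafish embryo is made from maternal messenger. During segmentation the tailbud supplies paraxial mesoderm, an oscillator of Hairy-related and Notch genes sets the somite borders, muscle and hindbrain territories become distinct, and the yolk syncytial layer packs yolk lipid into lipoproteins for the body.

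Each gene has a pair of log2 ratios of cortisol over vehicle, given below in a fixed order. The first is the scanner ratio, computed here from the median spot signals after correction of background and of the intensity-dependent dye difference. The second is the deposited ratio, the authors' normalized log ratio rescaled to log2. Positive values stand for more signal from the cortisol embryos. Signals are given as brightness minus local background, in the scanner's units. Red was far dimmer than green at 12 hpf: the 95th percentile of signal was 330 in red and 4350 in green. A gene with even ratios therefore had a much lower red than green signal, as did psmd14, a deubiquitinase subunit of the proteasome, with 7987.8 in vehicle, 654.7 in cortisol and ratios of 0.03 and -0.01. The median over all genes was -0.03 in the scanner ratio and -0.09 in the deposited one. Between probes of the same gene the pooled SD was 0.33 and 0.44 over 4783 genes, and across genes the pair of ratios correlated at only 0.46, so a gene is described as higher or lower where both ratios point the same way.

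The vehicle channel carried the marks of its stage. Of 23 segmentation markers, 19 had a higher vehicle signal at 12 than at 5 hpf and 17 a lower one at 24 than at 12 hpf. The hindbrain gene egr2b went from the floor of 3.43 on the log2 scale at 5 hpf to 11.8 at 12 hpf and 9.78 at 24 hpf. Of 15 late blastula markers, 13 were lower at 12 than at 5 hpf, among them nanog, a pluripotency factor, at 13.01 and then 5.67. The fast-muscle myosin light chain gene mylpfa was still at the floor of 3.43 at 12 hpf and reached 13.67 at 24 hpf. Between cortisol and vehicle, the 22 segmentation markers with both channels measured had median ratios of -0.01 and 0.06, the 11 late blastula markers lower ones of -0.21 and -0.29, and the 14 markers of 24 hpf 0.03 and -0.16.

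Few genes were far from even. In the scanner ratio 74 genes (0.58%) reached 2-fold towards cortisol and 41 (0.321%) reached 2-fold towards vehicle, and in the deposited ratio 357 (2.8%) and 392 (3.07%) did. Both ratios placed 147 genes (1.15%) 1.5-fold or more higher and 75 (0.588%) 1.5-fold or more lower, and at 2-fold these counts were 52 (0.407%) and 0 (0%). At the level of sign alone the balance lay the other way, with both ratios above 0 for 3552 genes (27.8%) and below 0 for 5559 (43.5%). These shares differed with brightness. In the dimmest of 4 equal groups of genes 28.7% were above 0 and 27.8% below 0 in both ratios, while in the brightest group these shares were 29.5% and 49.2%. The groups between had 47.3% and 49.9% below 0, so the 43.5% over all genes is a low standard for lists of brighter genes. The scanner median went from 0.05 in the dimmest group to -0.10 in the brightest, and the deposited median the other way, from -0.23 to -0.04.

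**Figure D1:**
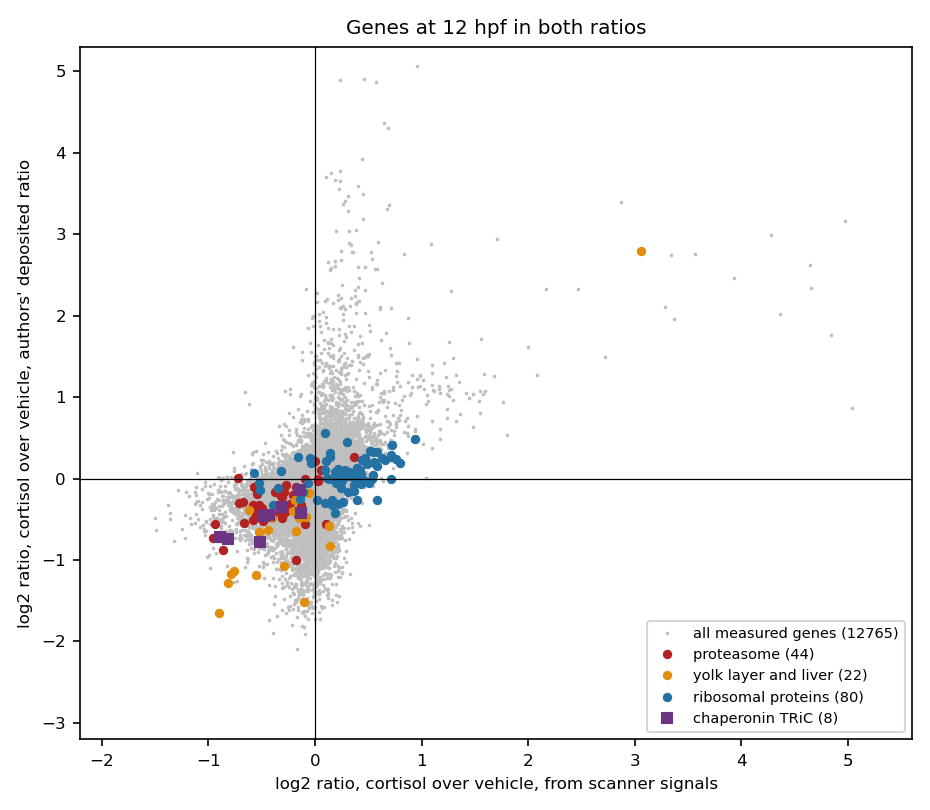
Scanner ratio (horizontal) against deposited ratio (vertical) of cortisol over vehicle at 12 hpf, both log2, for each of the 12765 measured genes (1 lies outside the axes), with 4 gene groups coloured. Proteasome and chaperonin genes lie mostly below 0 on both axes, ribosomal protein genes lie to the right of 0 but near 0 on the vertical axis, and the single yolk-layer point at the upper right is apoea.

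To describe the pathways, 32 lists of genes were used, with 1025 measured genes among the 1228 on the array. Both medians of a list were below 0 in 22 lists and above 0 in 3, and they ran from -0.31 to 0.29 in the scanner ratio and from -0.60 to 0.08 in the deposited one. The proteasome and the yolk-layer lipoprotein lists lay lowest. The arrays hold RNA of whole embryos, so for each tissue's genes fewer cells of a type and less RNA per cell cannot be told apart.

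**Figure D2:**
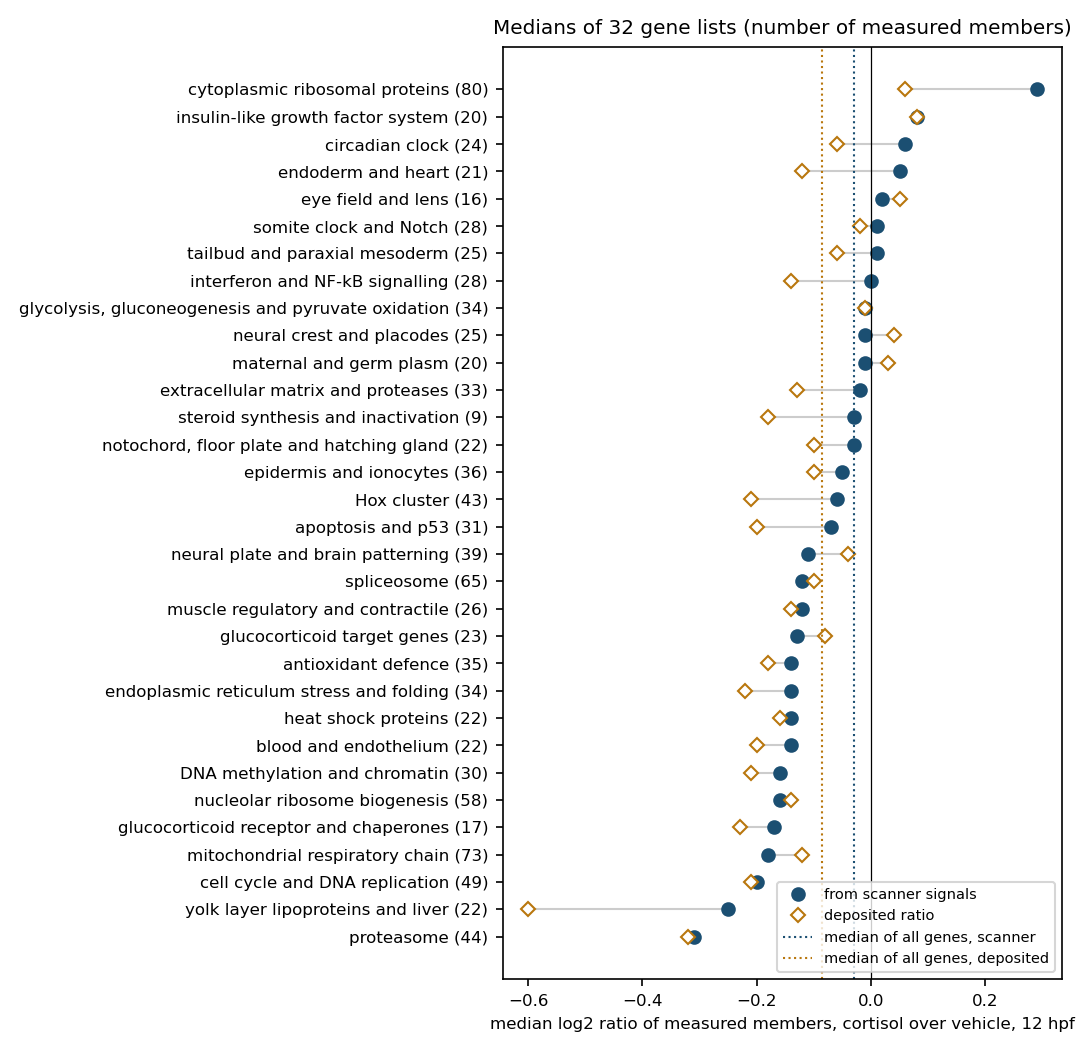
Median log2 ratio of cortisol over vehicle at 12 hpf for 32 gene lists, with the number of measured members in brackets (filled circles, scanner ratio; open diamonds, deposited ratio; dotted lines, medians of all genes). The proteasome list has both medians near -0.3, the yolk-layer list is lowest in the deposited ratio at -0.60, and cytoplasmic ribosomal proteins are highest in the scanner ratio at 0.29 but at 0.06 in the deposited one.

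Genes of the proteasome, the protease complex that degrades ubiquitin-tagged proteins, lay below the array's median as a group. All 44 genes on the array were measured, with bright spots (a median of 5240 in green and 328 in red). Both ratios were below 0 for 36 of them (81.8%, against 49.2% in the brightest group of genes) and above 0 for 2. Their medians were -0.31 and -0.32, against -0.10 and -0.04 for the brightest of the 4 groups of genes, and the scanner median stayed between -0.32 and -0.25 under each other setting tried except centring without loess, where it was -1.09. In the scanner ratio 7 members were at least 1.5-fold lower, where 3.24% of all genes were, and none was 1.5-fold higher (1.57% of all genes). Only 3 members were 1.5-fold lower in the deposited ratio, and 2 in both ratios (0.588% of all genes). The 3.24% is a low standard for such bright genes, as the background correction draws ratios of dim spots towards 0. With only brighter probes kept, 67 of 6491 genes were 2-fold lower in the scanner ratio, against 41 of all 12765.

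The low values ran through the whole particle. Of the 8 measured genes for the alpha ring, which gates the catalytic chamber, 6 were below 0 in both ratios, with medians of -0.29 and -0.38. The alpha subunit gene psma6a had 8884.7 in vehicle and 381.0 in cortisol, with ratios of -0.86 and -0.88, and psma3 had 4508.7 and 179.5, with ratios of -0.94 and -0.56. In contrast psma2a, another alpha subunit, had 8322.1 and 694.5, with ratios of 0.06 and 0.10. The beta ring, which holds the proteolytic sites, had medians of -0.39 and -0.20 over 7 genes, with 6 below 0 in both ratios. Among these psmb3 lay at -0.67 and -0.54 and psmb5, a catalytic subunit, at -0.39 and -0.44. The 7 genes for ATPases of the regulatory base, which unfold substrates, were all below 0 in both ratios, with medians of -0.31 and -0.40, from psmc1b at -0.71 and -0.30 to psmc3 at -0.23 and -0.31. The other regulatory subunits had medians of -0.31 and -0.36 over 17 genes, 14 of them below 0 in both ratios. The lid gene psmd12 had 2583.4 in vehicle and 65.8 in cortisol and ratios of -0.96 and -0.73, although its 2 probes gave scanner ratios of -1.59 and -0.32. The member highest in both ratios was pomp, the proteasome maturation factor, with 6594.7 and 694.2 and ratios of 0.37 and 0.26.

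At the other stages the proteasome list lay nearer the array's centre. At 5 hpf its medians were -0.07 and -0.10, with 28 of 44 genes below 0 in both ratios (42.2% of all genes were), and at 24 hpf they were -0.05 and 0.08, with 13 of 43 (38.6% of all genes). The gene pomp was higher at each stage, at 0.28 and 0.25 at 5 hpf and 0.72 and 0.71 at 24 hpf. The difference between stages was not tested.

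Protein-folding genes included a second complex with low values throughout. The chaperonin TRiC is a ring of 8 subunits that folds actin and tubulin, and this complex was singled out after its values had been seen. All 8 genes were below 0 in both ratios (49.2% of the brightest group of genes were), with medians of -0.46 and -0.46. The gene cct3 had 9942.3 in vehicle and 322.6 in cortisol, and ratios of -0.82 and -0.74. For cct5 the signals were 2267.2 and 85.6 and the ratios -0.89 and -0.72. The gene cct7 lay at -0.14 and -0.14, with 14771.7 and 1286.4, and cct4 at -0.13 and -0.42. Probes of these genes disagreed widely, from -1.03 to 0.43 in the scanner ratio for cct7 and from -1.40 to 0.26 for cct6a. With spots of raised background kept in the correction, the scanner median of the 8 was -0.05. At 5 hpf all 8 were again below 0 in both ratios (42.2% of all genes were), with medians of -0.26 and -0.32. At 24 hpf the medians were 0.01 and 0.26 and 1 gene was below 0 in both (38.6% of all genes were).

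**Figure D3:**
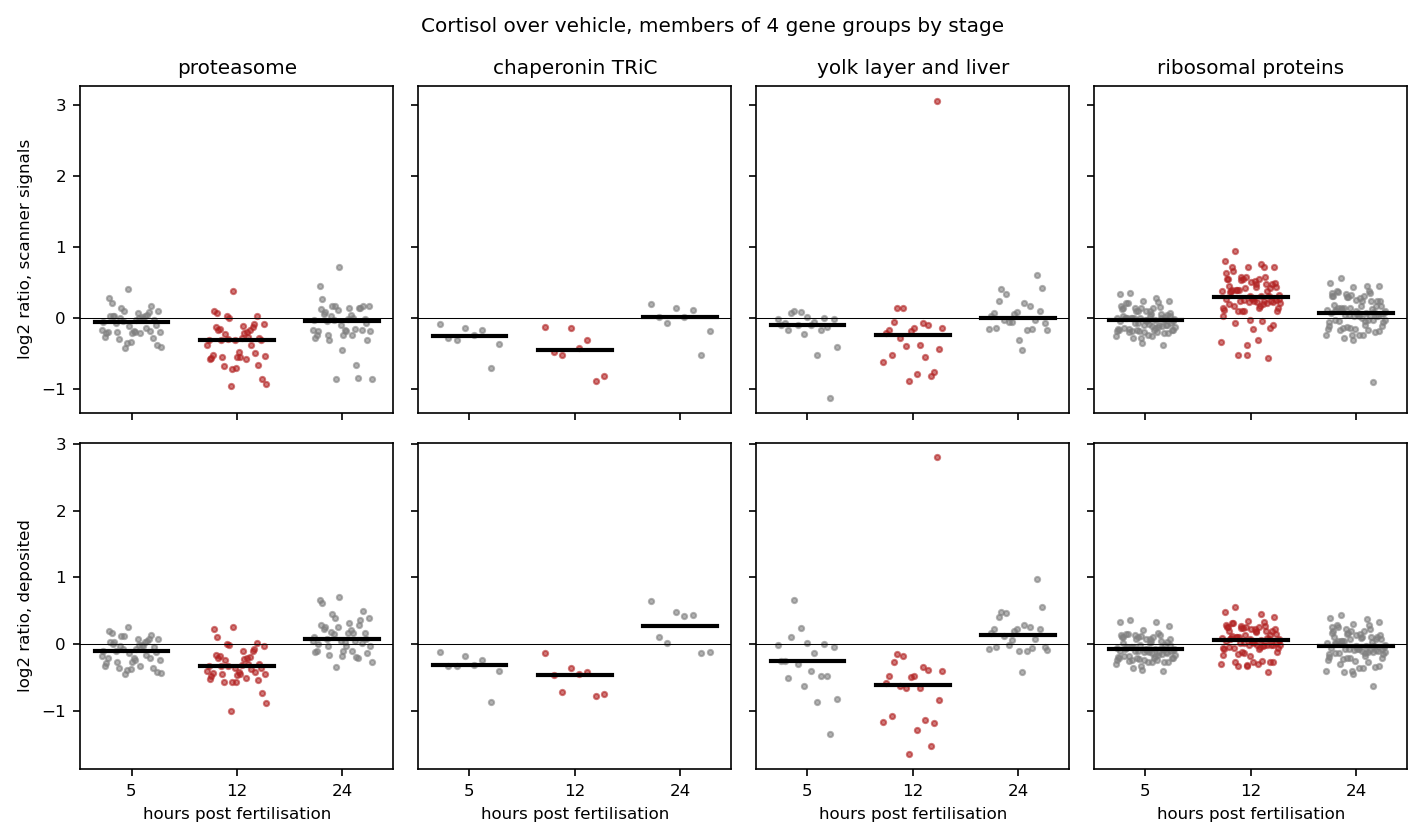
Log2 ratios of cortisol over vehicle (upper row, scanner ratio; lower row, deposited ratio) of each measured member of 4 gene groups at 5, 12 and 24 hpf, with black bars at the medians and 12 hpf in red. The proteasome and yolk-layer groups have lower medians at 12 hpf than at the other stages in both ratios, TRiC lies below 0 at 5 and 12 hpf, and the ribosomal proteins at 12 hpf are above 0 mainly in the scanner ratio.

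Most measured genes in the list of the glucocorticoid receptor and chaperones pointed the same way. Of its 17 measured genes, 11 (64.7%) were below 0 in both ratios, against 43.5% of all genes and 49.9% in the second-brightest group. The medians of the list were -0.17 and -0.23. With spots of raised background kept in the correction, its scanner median was -0.04, against -0.02 for all genes. The 1 gene above 0 in both was the dim fkbp5, a co-chaperone of the receptor, at 0.24 and 1.29. The Hsp110-family gene hspa4a, which releases nucleotide from Hsp70, had 963.2 in vehicle and 35.9 in cortisol and ratios of -0.70 and -0.69, from 1 of 3 probes. Its scanner ratio was -0.29 over all probes with no filter and -0.28 with spots of raised background kept. The endoplasmic reticulum Hsp90 gene hsp90b1 lay at -0.66 and -0.69 (1303.4 and 52.2), and bag1, another exchange factor of Hsp70, at -0.60 and -0.73 (469.3 and 13.7). The cytosolic Hsp90 genes were less even. For hsp90aa1.1 the ratios were -0.68 and -0.16, and for the bright hsp90ab1 0.02 and -0.15. The p23 gene ptges3b lay at -0.58 and -0.23 and the Hop gene stip1 at -0.39 and -0.25. None of these was lower in both ratios at all stages by 0.3 or more, and hspa4a was at -0.09 and -0.24 at 5 hpf and 0.11 and 0.36 at 24 hpf.

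The inducible heat shock genes were dim. The genes hsp70l and hsp70.2 were not measured in both channels at 12 hpf, and hsp70.3 had 145.9 in vehicle and 12.9 in cortisol, with ratios of 0.05 and -0.23, against 0.80 and 1.03 at 5 hpf. Of the 22 measured heat shock genes, 11 (50%) were below 0 in both ratios, near the 43.5% of all genes. The 2 above 0 in both were hspb8 at 0.14 and 0.14 and bag3 at 0.04 and 0.09. This list also holds some of the chaperones and TRiC subunits above. The endoplasmic reticulum folding and stress list had 23 of 34 genes (67.6%) below 0 in both ratios and 8 above 0, with medians of -0.14 and -0.22. Of all genes 43.5% were below 0 in both, and 49.9% in the second-brightest group. Its lower members included herpud1, of the degradation pathway, at -0.57 and -0.42, and its higher members ostc, of the oligosaccharyltransferase, at 0.68 and 0.41, and the translocon gene sec61a1a at 0.34 and 0.41.

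The yolk-layer and liver list, which holds the genes for lipoproteins and secreted plasma proteins, was low in nearly all members. Of 39 symbols 32 were on the array and 22 were measured. Of these 19 (86.4%, against 43.5% of all genes and 49.9% in the second-brightest group) were below 0 in both ratios and only apoea was above 0 in both. Their medians were -0.25 and -0.60, and the scanner median of these genes was -0.14 when spots of raised background were kept in the correction. The 10 unmeasured genes on the array may differ from these, since a gene with low red signal could not be kept. Without apoea the 10 other measured apolipoprotein genes ran from -0.90 to 0.13 in the scanner ratio and from -1.65 to -0.40 in the deposited one, and in both ratios 9 were below 0.

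Apart from apoea, the genes of high-density lipoprotein were furthest from even, with 4 at least 1.5-fold lower in both ratios (0.588% of all genes were). The gene apoa1b, for its main structural protein, had 985.7 in vehicle and 27.3 in cortisol and ratios of -0.90 and -1.65, and its paralogue apoa1a had 2664.4 and 85.9 and ratios of -0.79 and -1.17. The gene apoa2 lay at -0.82 and -1.28 (899.5 and 27.0) and apoa4b.1 at -0.76 and -1.13 (1703.0 and 86.4). The values of apoa1b and apoa2 rest on 1 probe each, with a low red signal. With spots of raised background kept in the correction, the scanner ratio was -0.32 for apoa1b and -0.28 for apoa2. In the same setting apoa4b.1 lay at -0.45 and apoa1a at -0.67. Some of these genes are close paralogues, so their probes may share signal. The bright apoeb, expressed strongly in the yolk syncytial layer, had 34533.4 in vehicle and 2110.2 in cortisol and ratios of -0.44 and -0.63 over 8 probes. Lower values were also found for apoc1, at -0.21 and -0.40, for apobb.1, the backbone of very-low-density particles, at -0.18 and -0.65, and for mttp, which loads lipid onto apolipoprotein B, at -0.38 and -0.34.

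Of the 11 measured members that are not apolipoproteins, 10 were below 0 in both ratios, with medians of -0.19 and -0.47. Transferrin (tfa) lay at -0.62 and -0.39 over 7 probes, with 4864.6 in vehicle and 247.1 in cortisol. The protease inhibitor gene serpina1 lay at -0.55 and -1.18, and the genes fabp1b.1 and fabp2, for intracellular fatty-acid carriers, at -0.40 and -0.49 and at -0.29 and -1.07. At 24 hpf the list's medians were 0.00 and 0.14, and apoa1b lay at -0.07 and -0.04 there. At 5 hpf, where apoa1b, apoa2 and apoa4b.1 were not measured in both channels, the medians of the list were -0.10 and -0.25.

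Genes of the ribosome gave the reverse picture in 1 ratio only. All 80 cytoplasmic ribosomal protein genes were measured, and their medians were 0.29 and 0.06. Both ratios were above 0 for 43 (53.8%, against 29.5% in the brightest group of genes) and below 0 for 7. Large and small subunits were alike, at 0.31 and 0.02 over 45 rpl genes and 0.28 and 0.10 over 32 rps genes. The highest was rpl29, with 34633.2 in vehicle and 4454.7 in cortisol and ratios of 0.94 and 0.48, and rpl34 lay at 0.72 and 0.41. The gene rpl5a lay at -0.39 and -0.33. These are among the brightest spots of the array, with a median of 43900 in green and 3790 in red. Their scanner median moved with the handling of background and with the dye correction. It was 2.1 with spots of raised background kept and 0.89 without background correction, both with loess. When ratios were centred without loess it was -1.06, a change of direction. At the other stages the medians were within 0.08 of 0.

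Genes that build ribosomes lay on the other side. Of 58 measured nucleolar genes, all that were on the array, 41 (70.7%) were below 0 in both ratios and 8 above, with medians of -0.16 and -0.14. In the brightest group of genes 49.2% were below 0 in both, with medians of -0.10 and -0.04. The RNA helicase gene ddx56 lay at -0.75 and -0.73 over 4 probes, with 2575.0 in vehicle and 114.5 in cortisol, and ddx27 at -0.63 and -0.51. The 5 RNA polymerase I genes had medians of -0.10 and 0.04, with polr1a at 0.23 and 0.33 and polr1d at 0.22 and 0.30 but polr1e at -0.41 and -0.22 and polr1b at -0.10 and -0.13, and the helicase gene ddx21 lay at 0.42 and 0.14.

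DNA replication genes were mostly low. The cell cycle and replication list had 33 of 49 measured genes (67.3%, against 49.2% in the brightest group) below 0 in both ratios and 6 above, with medians of -0.20 and -0.21. Replication factor C loads the sliding clamp, and 4 of its 5 genes were below 0 in both ratios. Its gene rfc2 had 1863.1 in vehicle and 46.4 in cortisol, with ratios of -1.22 and -0.73. Of the 6 genes for the MCM helicase, 5 were below 0 in both ratios, including mcm6 at -0.66 and -0.42 and mcm2 at -0.38 and -0.38, while mcm7, the brightest of them, lay at 0.17 and 0.13. The sliding clamp gene pcna lay at -0.54 and -0.31, and all 7 polymerase and primase genes had a scanner ratio below 0. The 3 genes of replication protein A, which coats single strands, were split: rpa2 lay at -0.68 and -0.47, rpa1 at 0.13 and -0.49 and rpa3 at 0.19 and 0.07. Mitotic genes were less uniform, with 8 of 13 below 0 and 3 above 0 in both ratios. The mitotic kinase gene aurkb lay at 0.16 and 0.18 and the spindle kinesin gene kif11 at 0.45 and 0.15, whereas the cyclin gene ccnb1 lay at -0.38 and -0.42. At 24 hpf the medians of the list were -0.02 and 0.06.

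Respiratory chain genes were nearer to other bright genes, with 41 of 73 (56.2%) below 0 and 14 above 0 in both ratios, against 49.2% below 0 in the brightest group, and medians of -0.18 and -0.12. Complex I, the entry point for electrons from NADH, had 17 of 32 genes below 0 and 5 above 0, with medians of -0.20 and -0.05. Complex IV had 5 of 14 below 0 and 2 above 0, with medians of -0.10 and -0.03. Complex III, which passes electrons to cytochrome c, had medians of -0.40 and -0.20 over 8 genes, with uqcrc1 at -0.53 and -0.50 and uqcrfs1 at -0.58 and -0.38 but uqcrb at 0.39 and 0.33. The ATP synthase had 10 of 13 genes below 0 in both ratios, including the catalytic subunit gene atp5f1b at -0.42 and -0.62. Complex II had medians of -0.03 and -0.02 over 4 genes. The haem synthesis gene cox10, needed for complex IV, was lowest in the scanner ratio, with 2670.5 in vehicle and 73.7 in cortisol and ratios of -1.25 and -0.62. The complex IV subunit gene cox6b1 was at 0.87 and 1.97, from dim spots of 113.3 and 38.3. Glycolytic genes had medians of -0.01 and -0.01, with 12 genes on either side, of which eno1a lay at 0.66 and 1.33 and the lactate dehydrogenase gene ldhba at -0.52 and -0.72.

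The antioxidant list had 26 of 35 genes (74.3%) below 0 in both ratios and 5 above, with medians of -0.14 and -0.18. Of all genes 43.5% were below 0 in both, and 49.9% in the second-brightest group. The peroxiredoxin gene prdx3 lay at -0.47 and -0.50 and the thioredoxin gene txnb at -0.43 and -0.46, while keap1b, a sensor that restrains the antioxidant response, lay at 0.41 and 0.69. Spliceosome genes were below 0 in both ratios for 36 of 65 (55.4%, against 49.2% in the brightest group). Their PRP factors had 5 of 8 below 0 and 2 above 0, with prpf31, of the U4/U6 particle, at -0.76 and -1.27, whereas the Sm proteins, the core of the particles, had 2 of 8 below 0 and 4 above 0, with medians of 0.06 and 0.10. Among chromatin genes 19 of 30 (63.3%, against 43.5% of all genes and 49.9% in the second-brightest group) were below 0 in both ratios. The histone variant gene h2az2a lay at -0.64 and -0.71 (6389.9 and 333.8).

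Genes of the segmenting axis, by contrast, stood near the array's median. The somite clock and Notch list had medians of 0.01 and -0.02 over 28 genes. Both ratios were above 0 for 10 (35.7%) and below 0 for 10 (35.7%), against 27.8% and 43.5% of all genes. No member reached 1.5-fold in the scanner ratio, where only 1.57% of all genes were 1.5-fold higher and 3.24% lower. Of the oscillator genes, her1 lay at 0.09 and 0.17 and her7 at -0.42 and -0.15. The Notch ligand genes dlc and dld were at 0.05 and 0.39 and at 0.31 and 0.14. The segmental factor gene tbx6 had 3396.8 in vehicle and 346.2 in cortisol and ratios of 0.28 and 0.35. The lowest member was the Hairy-related gene hes6, with 3890.2 and 206.5 and ratios of -0.58 and -0.58.

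Tailbud and paraxial mesoderm genes had medians of 0.01 and -0.06 over 25 genes. Both ratios were above 0 for 12 (48%, against 27.8% of all genes) and below 0 for 11 (44%, against 43.5% of all genes). The gene tbxta, for the Brachyury factor of notochord and tailbud, was highest, with 2263.8 in vehicle and 292.0 in cortisol and ratios of 0.55 and 0.51. When centred without loess its scanner ratio was -0.32. The retinoic acid synthesis gene aldh1a2 lay at 0.33 and 0.34, and the degrading enzyme gene cyp26a1 at -0.19 and -0.14. The Wnt-responsive factor gene sp5l lay at -0.43 and -0.33, and msgn1, of presomitic mesoderm, at 0.09 and 0.06. At 5 hpf the same list had medians of -0.28 and -0.40, and at 24 hpf of -0.40 and -0.59. The difference between stages was not tested.

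Muscle genes had 17 of 26 (65.4%) below 0 and 7 above 0 in both ratios, with medians of -0.12 and -0.14. Of all genes 43.5% were below 0 in both, and 47.3% and 49.9% in the groups of middle brightness. The myogenic factor gene myf5 lay at -0.54 and -0.35 with 4468.2 in vehicle and 249.2 in cortisol, but myod1, its partner, at -0.02 and 0.18. The transcription factor gene mef2ca was higher, at 0.61 and 1.30, from dimmer spots of 244.2 and 46.9. Notochord, floor plate and hatching gland genes had medians of -0.03 and -0.10. The endoderm and floor plate factor gene foxa2 lay at -0.46 and -0.42 and the hatching enzyme gene he1.1 at -0.48 and -0.45, while agr2, a secretory gland gene, lay at 1.06 and 0.95 from a vehicle signal of 42.9.

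The Hox list also holds the cofactor genes of the Pbx and Meis families. Of its 43 measured genes, 28 (65.1%) were below 0 in both ratios and 5 above, with medians of -0.06 and -0.21. Of all genes 43.5% were below 0 in both, and 47.3% and 49.9% in the groups of middle brightness. By cluster, the scanner medians were -0.11 for hoxa, -0.08 for hoxb, -0.05 for hoxc and -0.03 for hoxd genes. The anterior hindbrain gene hoxb1b had 1823.0 in vehicle and 109.7 in cortisol and ratios of -0.34 and -0.29. The highest in the scanner ratio, hoxd10a, lay at 0.55 and 0.63, with 2 probes at 0.06 and 1.03.

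Neural plate genes had 20 of 39 (51.3%) below 0 and 10 (25.6%) above 0 in both ratios, close to the 43.5% and 27.8% of all genes, with otx2b, of forebrain and midbrain, at -0.32 and -0.36 and the proneural gene ascl1b at 0.50 and 0.48. Neural crest and placode genes were split evenly, 10 on either side, with twist1a lowest in the scanner ratio, at -0.31 and -0.32, and six1a lower in the deposited one, at -0.18 and -0.53. Epidermal genes had medians of -0.05 and -0.10. Among blood and endothelial genes, the leukocyte actin-bundling gene lcp1 lay at -0.73 and -0.89 (3786.1 and 148.6), and the list had 13 of 22 genes (59.1%) below 0 in both ratios. Endoderm and heart genes had 8 above and 7 below, with the Nodal antagonist gene lft1 highest at 0.59 and 0.38.

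The receptor's own pathway gave small values in the scanner ratio. The glucocorticoid receptor gene nr3c1 had 291.7 in vehicle and 27.2 in cortisol over 4 of 8 probes, with ratios of 0.08 and -0.27 that differ in sign. The mineralocorticoid receptor gene nr3c2 was not above the controls in either channel. Of 23 measured genes known from other vertebrates as glucocorticoid targets, 8 (34.8%) were above and 12 (52.2%) below 0 in both ratios. Of all genes 27.8% were above and 43.5% below. The medians of the 23 were -0.13 and -0.08. None was 1.5-fold from even in the scanner ratio, where only 1.57% of all genes were 1.5-fold higher and 3.24% lower. In the deposited ratio 2 were 1.5-fold higher and 0 lower, where 2.8% of all genes were 2-fold higher and 3.07% lower. These genes were dim, with median signals of 343 in green and 29.0 in red, and the background correction draws scanner ratios of dim spots towards 0. The immunophilin gene fkbp5, a feedback inhibitor of the receptor, had 24.9 in vehicle and 8.5 in cortisol and ratios of 0.24 and 1.29. The leucine zipper gene tsc22d3 lay at -0.13 and -0.07 (309.4 and 20.9), and the kinase gene sgk1 at -0.25 and -0.20 (1636.9 and 110.7). The clock genes per1a and cry2 were higher, at 0.31 and 0.57 (200.0 and 26.5) and at 0.31 and 0.51 (222.7 and 29.0), each from 1 probe. With spots of raised background kept in the correction, the scanner ratio of each was 0.04. Averaged over its probes with no filter, per1a was at 0.12. Both glutamine synthetase genes were lower, glula at -0.42 and -0.48 (6014.0 and 354.2) and glulb at -0.31 and -0.32, though probes of glulb ran from -1.11 to 0.31 in the scanner ratio. The growth inhibitor gene ddit4 lay at -0.39 and -0.28 with a cortisol signal of -2.1, below its local background. The protease gene mmp9 lay at -0.25 and -0.41. The genes klf9, pck1 and mmp13a were above the controls in vehicle but not in cortisol, so they have no ratio.

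Enzymes of steroid synthesis and inactivation were scarcely measured, 9 of 19 on the array. The side-chain cleavage gene cyp11a1.1, the entry enzyme of steroid synthesis, lay at -0.27 and -0.50 (1061.8 and 66.2), the ferredoxin gene fdx1 at -0.38 and -0.21 and cyp17a1 at 0.15 and 0.45. The cortisol-inactivating enzyme genes hsd11b2 and hsd20b2 lay at 0.03 and -0.65 and at 0.22 and 0.77, the first from spots of 48.3 and 5.1.

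The 12 genes highest in both ratios fell into a dim and a bright set. The dim set had 7 genes with a vehicle signal of 68.9 or less: plekha2, apoea, cryba2a, nr6a1b, ppm1na, atf7a and ippk. The apolipoprotein E gene apoea had 16.4 in vehicle and 140.7 in cortisol and ratios of 3.06 and 2.80. For the lens crystallin gene cryba2a these values were 22.5, 170.9, 3.34 and 2.74, and for the orphan nuclear receptor gene nr6a1b 30.0, 372.5, 4.64 and 2.62. Each ratio of the dim set rests on 1 probe at which the local red background, from 140.3 to 203.8, was above the array's median of 130. With spots of raised background kept in the correction, their scanner ratios were between 0.44 (ppm1na) and 1.95 (nr6a1b), with apoea at 0.66, cryba2a at 0.82 and plekha2 at 0.55, and with no background correction between 1.85 and 3.68. Where other probes of the gene were on the array they did not give such values: averaged over all probes with no filter, cryba2a was at 0.90, ippk at 1.28, apoea at 1.51 and ppm1na at 0.83 in the scanner ratio.

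The other 5 of the 12 were bright, but each of their ratios at 12 hpf also rests on 1 probe. The gene igfbp5a, whose product binds insulin-like growth factors, had 2581.0 in vehicle and 6044.9 in cortisol, with ratios of 4.84 and 1.76, and was the only one of these genes whose red signal exceeded a bright green one. A second igfbp5a probe was not above the controls, and the mean over both was 2.46. The gene bmerb1 had 7832.7 and 1983.3 and ratios of 1.68 and 1.26, plppr5b, of a phospholipid-phosphatase-related family, 887.7 and 212.0 with 1.25 and 1.68, the zinc finger gene znf367 3759.0 and 751.0 with 1.23 and 1.24, and the acyl-CoA thioesterase gene acot9.2 32847.2 and 5690.0 with 1.35 and 1.18. These last 4 were measured at each stage. Averaged over its probes with no filter, plppr5b was at 0.64 in the scanner ratio at 12 hpf. At 24 hpf bmerb1 lay at 1.67 and 1.41, plppr5b at 1.61 and 1.96, znf367 at 1.06 and 1.27 and acot9.2 at 1.13 and 1.25, and at 5 hpf all 4 were above 0 in both ratios (47% of all genes were, and 35.1% at 24 hpf), up to 0.85 and 0.68 for acot9.2. Of the dim set only apoea and cryba2a were measured at 24 hpf, at 0.42 and 0.97 and at 0.03 and 0.11. Centred without loess, acot9.2 lay at -0.10 and bmerb1, plppr5b and znf367 between 0.18 and 0.61, so the size of these values rests on the dye correction. The innate immune kinase gene tbk1, the highest of the interferon and NF-kB list, was similar, with 12872.0 in vehicle and 2322.9 in cortisol and ratios of 1.26 and 1.08. At 24 hpf it lay at 1.32 and 1.39. Its 12 hpf values rest on 1 of 3 probes, and its scanner ratio there was -0.02 when centred without loess.

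**Figure D4:**
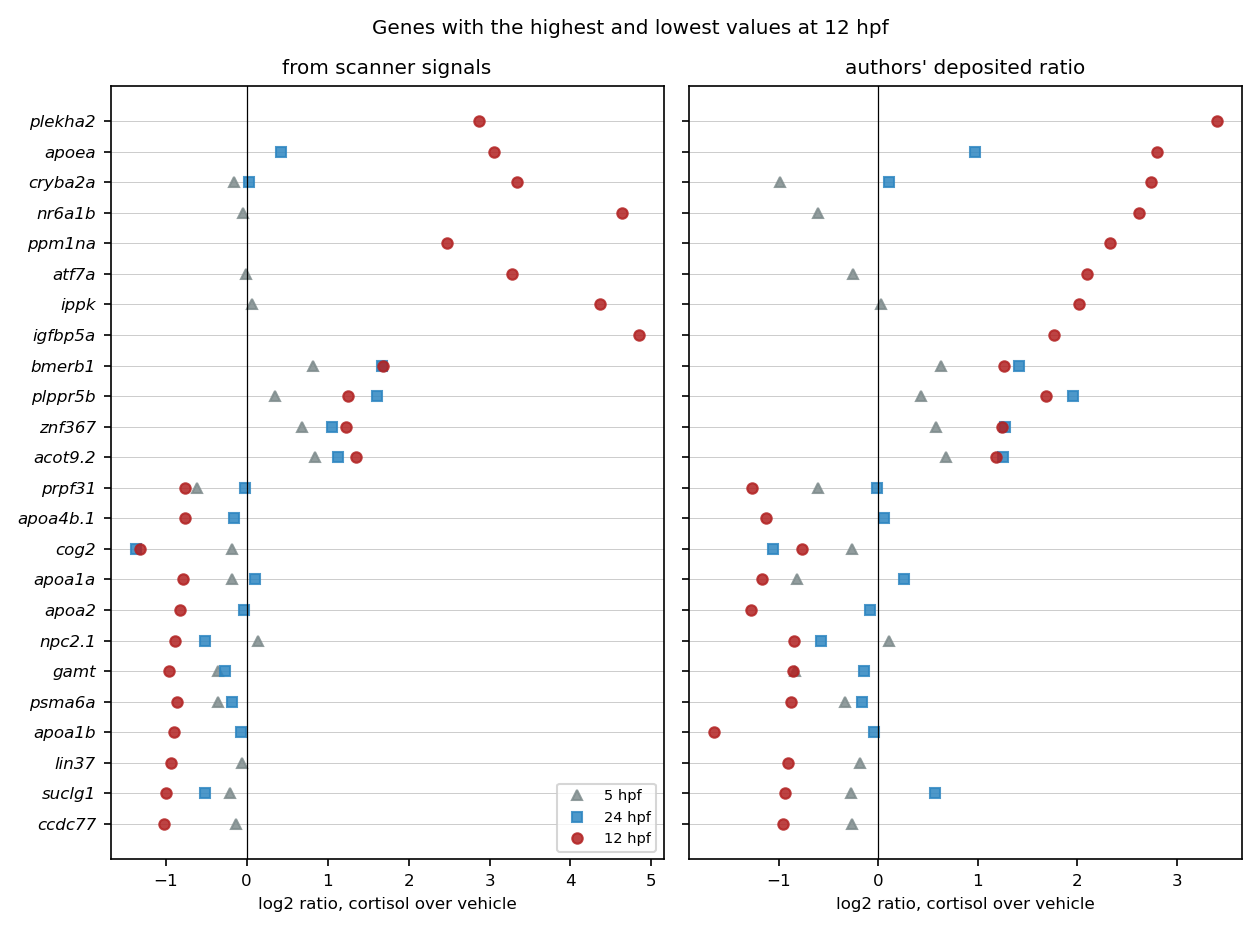
Log2 ratios of cortisol over vehicle for the 12 highest and 12 lowest genes at 12 hpf (red circles), with the same genes at 5 hpf (grey triangles) and 24 hpf (blue squares) where measured in both channels (left, scanner ratio; right, deposited ratio). The genes bmerb1, plppr5b, znf367 and acot9.2 are above 0 at each stage, whereas apoa1a, apoa1b and apoa2 are low at 12 hpf and near 0 at 24 hpf.

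The 12 lowest genes held 4 of the apolipoprotein genes above and psma6a. The creatine synthesis gene gamt had 10308.8 in vehicle and 411.8 in cortisol, with ratios of -0.96 and -0.86 and all 4 probes between -1.21 and -0.67 in the scanner ratio. The succinyl-CoA ligase gene suclg1 lay at -1.0 and -0.94 (1091.5 and 27.7), and the lysosomal cholesterol carrier gene npc2.1 at -0.89 and -0.85 over 3 probes from -1.37 to -0.28 (1448.2 and 43.3). The coiled-coil gene ccdc77 lay at -1.02 and -0.96 (859.4 and 17.0). The gene lin37, of the cell-cycle repressor complex DREAM, lay at -0.93 and -0.91 (563.5 and 7.4), and the Golgi tethering gene cog2 at -1.32 and -0.77 (1584.2 and 31.0). Before background subtraction, the red signal of lin37 was 139.7, against a control limit of 134.7. With spots of raised background kept in the correction, the scanner ratio was -0.20 for lin37, -0.30 for ccdc77 and -0.37 for suclg1. In the same setting npc2.1 lay at -0.48, cog2 at -0.59, psma6a at -0.88 and gamt at -0.89. Averaged over its probes with no filter, ccdc77 was at -0.60. Of the 12 lowest genes, 10 were measured at 24 hpf and 7 were below 0 in both ratios there (38.6% of all genes were). The gene cog2 alone was lower by 1.5-fold there, at -1.37 and -1.06. At 5 hpf 9 of the 12 were measured and 8 were below 0 in both (42.2% of all genes were), with prpf31 at -0.61 and -0.61.

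Higher genes recurred at 24 hpf and lower genes hardly did. Over all 12319 genes measured at 24 hpf, 133 (1.08%) were at least 1.5-fold higher in both ratios and 164 (1.33%) lower. Among 10769 genes measured at both stages, 120 were at least 1.5-fold higher in both ratios at 12 hpf and 123 at 24 hpf. Of these 61 were shared, 50.8% of the first and 49.6% of the second. Of 72 genes at least 1.5-fold lower at 12 hpf and 164 at 24 hpf, 2 were shared, 2.78% and 1.22%, of which cog2 has a gene symbol. A further 4 genes at least 1.5-fold higher at 12 hpf, among them egln3, a prolyl hydroxylase gene, were at least 1.5-fold lower at 24 hpf. The shared higher genes included bmerb1, plppr5b, znf367, acot9.2, tbk1, cox6b1 and mef2ca. Across these genes the scanner ratios at 12 and 24 hpf correlated at 0.55 and the deposited ratios at 0.26. The 12 and 24 hpf arrays both had a dim red channel, with 95th percentiles of 330 and 290 against 7318 at 5 hpf, and their deposited names place them on the same slide. The part of slide, dye and brightness in the shared values was not tested.

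With 5 hpf, 12172 genes were measured at both stages. Among these, 133 were at least 1.5-fold higher in both ratios at 12 hpf and 374 at 5 hpf, and 29 were shared, 21.8% and 7.75%. Of 72 lower genes at 12 hpf and 123 at 5 hpf, 2 were shared, prpf31 and the dipeptidase gene dpp7. A further 2 of the 72, fkbp16 and hadh, were at least 1.5-fold higher at 5 hpf. Over all 19309 genes measured at 5 hpf, 500 (2.59%) were at least 1.5-fold higher in both ratios and 174 (0.901%) lower. Among the 891 list members measured at all stages, 5 were higher by at least 0.3 in both ratios at each stage, cry2, mef2ca, tnnt3a, atp6v1aa and apaf1. By the same rule 5 were lower, glula, hes6, sp5l, lcp1 and gata5. Genes outside the lists were not examined by this rule. The pair of ratios of tnnt3a lay far apart, at 0.72 and 1.94 at 5 hpf and 0.45 and 3.92 at 12 hpf. For glula the pairs at 5, 12 and 24 hpf were -1.64 and -2.27, then -0.42 and -0.48, then -0.46 and -0.49.

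Scanner medians at 12 hpf differed little by a gene's course in development, while deposited medians and the shares by sign shifted more. Genes were classed by the vehicle signal at 24 against 5 hpf, which uses no value of 12 hpf. The 1640 genes at least 4-fold lower at 24 hpf had median ratios of -0.04 and -0.18 at 12 hpf, the 5218 genes within 2-fold -0.03 and -0.07, and the 2334 genes at least 4-fold higher -0.01 and -0.04. In this order 46.5%, 43.3% and 39% were below 0 in both ratios, and 22.7%, 29.5% and 30.9% above 0.

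A further 7344 genes were above the controls in vehicle only and 268 in cortisol only, with red the dimmer channel. For these the fold is a nominal lower bound, from the brighter channel against the lowest measured signal of the other or the probe's own. It is open to dye bias and to the background correction, and its direction follows from the channel that passed the filter. The integrin gene itga2b, of thrombocytes, had a bound of 5.16-fold towards cortisol, with -1.0 in vehicle and 84.5 in cortisol from 1 probe. For rgl2, a Ral exchange factor gene, the bound was 1.97-fold, with 4.0 and 27.0, also from 1 probe. Their local red backgrounds, 142.5 and 140.0, were above the array's median of 130. No gene measured in vehicle only had a bound of 2-fold, the highest being selenoj at 1.41-fold lower.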

How the data were processed

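Values of 3 stages were used, with 1 deposited set per stage, grouped by the labels. The deposited scanner files hold median spot and local background intensity per channel from Agilent Feature Extraction, per the submitters' processing notes, with the version not given in the sources used here. A log10 ratio, red over green and normalized by the authors, was deposited too and is rescaled here to log2, beside processed intensity values of both channels, per the file headers. The values at 12 hpf are taken as means over the 3 arrays, from their decimals, so that within-array correction is approximate. The number of arrays limits the precision.

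From the scanner intensity, background was corrected with limma's normexp (offset 50), which draws ratios of dim spots towards 0. Ratios were then corrected by loess with control spots at weight 0 (limma 3.58.1, R 4.3.3). A simulated array with changes planted only in bright spots was passed through these steps, so changes in dim spots were not tested. At 12 hpf 9 spots were left out because their background was over 2 times the median of the array. A probe counted as measured in a channel where it lay over 2 SD above the mean of the 153 negative control spots. At 12 hpf 20041 of 43594 probes were measured in both channels, 32917 in vehicle and 20399 in cortisol. The deposited ratio was exactly 0 for 0.414% of the probes measured in both. Means were taken over the spots of each probe and then over each gene's measured probes, with Python 3.11.15, pandas 2.3.3 and numpy 2.4.6 (figures, matplotlib 3.10.9). Probes were named through RefSeq's gene table (GRCz12tu), which served for names alone: 25255 by accession, 2765 by symbol and 1681 by synonym, while 13893 kept the name in the file. Vehicle levels across stages were scaled on the median of genes measured in green at each stage, with a floor at the highest of the green thresholds.

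The text names the 12 genes furthest from 0 in each direction by the smaller of their 2 ratios, among 4374 named genes whose ratios and probes all have the same sign, then up to 2 members of each list in each direction, 12 fixed genes and the top genes of 1 channel. Further list members, the complexes within lists, TRiC and the genes alike at each stage were chosen after their values were seen. All members and lists were chosen with earlier results of these data known. The planned search of promoters for the glucocorticoid response element was not run, and no sequence is shown. The receptor antagonist and receptor messenger experiments named in the title are not analysed here. The alternatives are described at the end.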

Additional observations from a re-analysis of the deposited data

Results flagged for a closer look

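Among the named genes, 2 lay at least 0.4 from 0 in one direction at 12 hpf and in the other at another stage in both ratios, each with 1 set of values per stage, so the differences were not tested. The Brachyury gene tbxta had log2 ratios of 0.55 and 0.51 at 12 hpf but of -0.66 and -0.73 at 5 hpf, and of 0.04 and 0.23 at 24 hpf. Its 12 hpf scanner ratio, from 1 probe, was 0.02 with spots of raised background kept and -0.32 with median centring. The lactate dehydrogenase gene ldhba had log2 ratios of -0.52 and -0.72 at 12 hpf but of 0.41 and 0.56 at 24 hpf, and of -0.44 and -0.43 at 5 hpf.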

How the results depend on the processing

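The 74 genes at least 2-fold higher became 357 in the deposited ratio, 560 in the ratio of the processed signals, 3168 with median centring in place of loess, 115 with no background correction, 243 with spots of raised background kept and 201 at 1.5-fold. The 41 genes at least 2-fold lower became 392, 300, 1343 and 19 under the first 4 of these, 67 with both channels over the median signal and 414 at 1.5-fold. Of 32 list medians, 25 kept their sign in the deposited ratio, 24 in the processed signals, 27 with no background correction, 26 with raised-background spots kept, 26 among brighter probes, 28 with no filter and 31 with the median of the probes. Median centring placed the median of all genes at 0.16 and kept the sign of 20 lists. Under it bright lists lay far lower: proteasome -1.09, ribosomal proteins -1.06, cell cycle -0.99, respiratory chain -0.96, spliceosome -0.88, nucleolar genes -0.86, epidermis -0.81, heat shock -0.81, endoplasmic reticulum -0.61, antioxidant -0.59 and tailbud -0.41. Dim lists lay higher: interferon 0.90, eye and lens 0.87, circadian clock 0.72, steroid synthesis 0.55, glycolysis 0.39, Hox 0.33 and glucocorticoid targets 0.25. The yolk-layer median was -0.60 in the deposited ratio, and that of ribosomal proteins 0.89 with no background correction and 2.1 with raised-background spots kept. Under median centring acot9.2 was at -0.10 and tbk1 at -0.02. The causes were not tested. No paired analysis was possible because each stage has 1 set of values, and for the same reason no replicate could be left out. A gene with a low red signal could not be kept, which limits what can be seen of lower genes.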
